A study of Mus musculus with 4 samples.

Results

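The 44 genes described here encode the machinery that copies nuclear DNA. They were chosen by symbol from known replication factors, but with earlier results of these data known. All 44 were among the 24873 genes in the deposited table of normalized counts. RNA was sequenced from sorted brain cells. The mice were of the genotype VE-cadherin cre/ERT2 Mgp fl/fl, in which tamoxifen switches on a recombinase driven by an endothelial promoter and the Mgp gene, encoding a secreted inhibitor of bone morphogenetic proteins, carries its target sites. There were 2 control libraries without tamoxifen and 2 tamoxifen libraries, the latter from mice injected with 75 mg/kg on 5 consecutive days. In both groups the mice were 10 weeks old at the start, cells were collected on day 9, and those of 3 mice were pooled per library. Control mice carried the same Cre and the same floxed Mgp alleles, so recombinase and flanked gene were shared by all 4 libraries. The study describes the cells as CD31+CD45-, whereas the labels give them as Brain tdTomato+, and the letters C and A of the data columns were read as control and as the lesion that tamoxifen induces, since no label holds an A.

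Replication starts when the origin recognition complex, Cdc6 and Cdt1 load the ring of Mcm2 to Mcm7 onto DNA. Mcm10, Cdc45 and the GINS complex then turn that ring into a working helicase, polymerase alpha-primase lays down primers, and polymerases delta and epsilon extend them with the help of the clamp Pcna and its loader. Most of these genes are transcribed late in G1 and in S phase under E2F factors, and the endothelium of the adult brain is known as a tissue in which few cells divide.

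Reads on genes came to between 35387438 and 49799321 per library. A value from 3 reads or fewer, which corresponds to between 2.16 and 4.11 normalized counts in a library, was treated as the floor, which covers counting error only. Mgp itself measured 1094 and 1352 normalized counts in control libraries and 945 and 909 in tamoxifen libraries, a log2 fold change of -0.39 (SE 0.18, adjusted p = 0.0986), so the targeted gene was not called lower. Of the 20485 genes whose mean reached 10 normalized counts, 44.7% were called, meaning an adjusted p under 0.05 and a log2 fold change over 1 in either direction. The calls comprised 5867 higher and 3284 lower genes under the authors' scaling, 7206 and 1838 with every library set to the same total, and 4615 and 5509 after quantile normalization. The median log2 fold change over all tested genes was 0.05 under the authors' scaling, 0.52 with equal totals and -0.23 after quantile normalization. Endothelial markers summed to 1041900 and 1032500 normalized counts in control libraries and to 180610 and 92069 in tamoxifen libraries, and 10 of 10 were called lower. Fewer cells of a type and less RNA per cell cannot be told apart in pooled samples of this kind.

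DNA replication genes were higher in tamoxifen libraries in nearly every step of the process. Of the 44 genes, 39 were called higher and none lower, where 28.6% of all tested genes were called higher and 16.0% lower. By the adjusted p alone 42 of 44 were higher, against 33.4% of all tested genes. In all 44 both tamoxifen libraries lay above both control libraries, a pattern that 43.1% of all tested genes had. The median log2 fold change over the 44 genes was 2.56, against 0.05 over all tested genes, and single genes ranged from 0.18 for Pold3 to 6.75 for Mcm10. The mean rose more than 10-fold in 14 genes and stayed under 2-fold in 5. Together they made up 0.0625% and 0.0701% of all normalized counts in control libraries and 0.453% and 0.408% in tamoxifen libraries. The p-values measure the spread between these pooled libraries, and 2 against 2 cannot go below 0.333 in a two-sided exact permutation test, so every call rests on the model fitted across genes. Without tamoxifen replicate 1 or without tamoxifen replicate 2 the calls in either direction fell from 9151 genes to 5024 or 4147, and the replication genes called higher from 39 to 31 or 32.

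**Figure D1:**
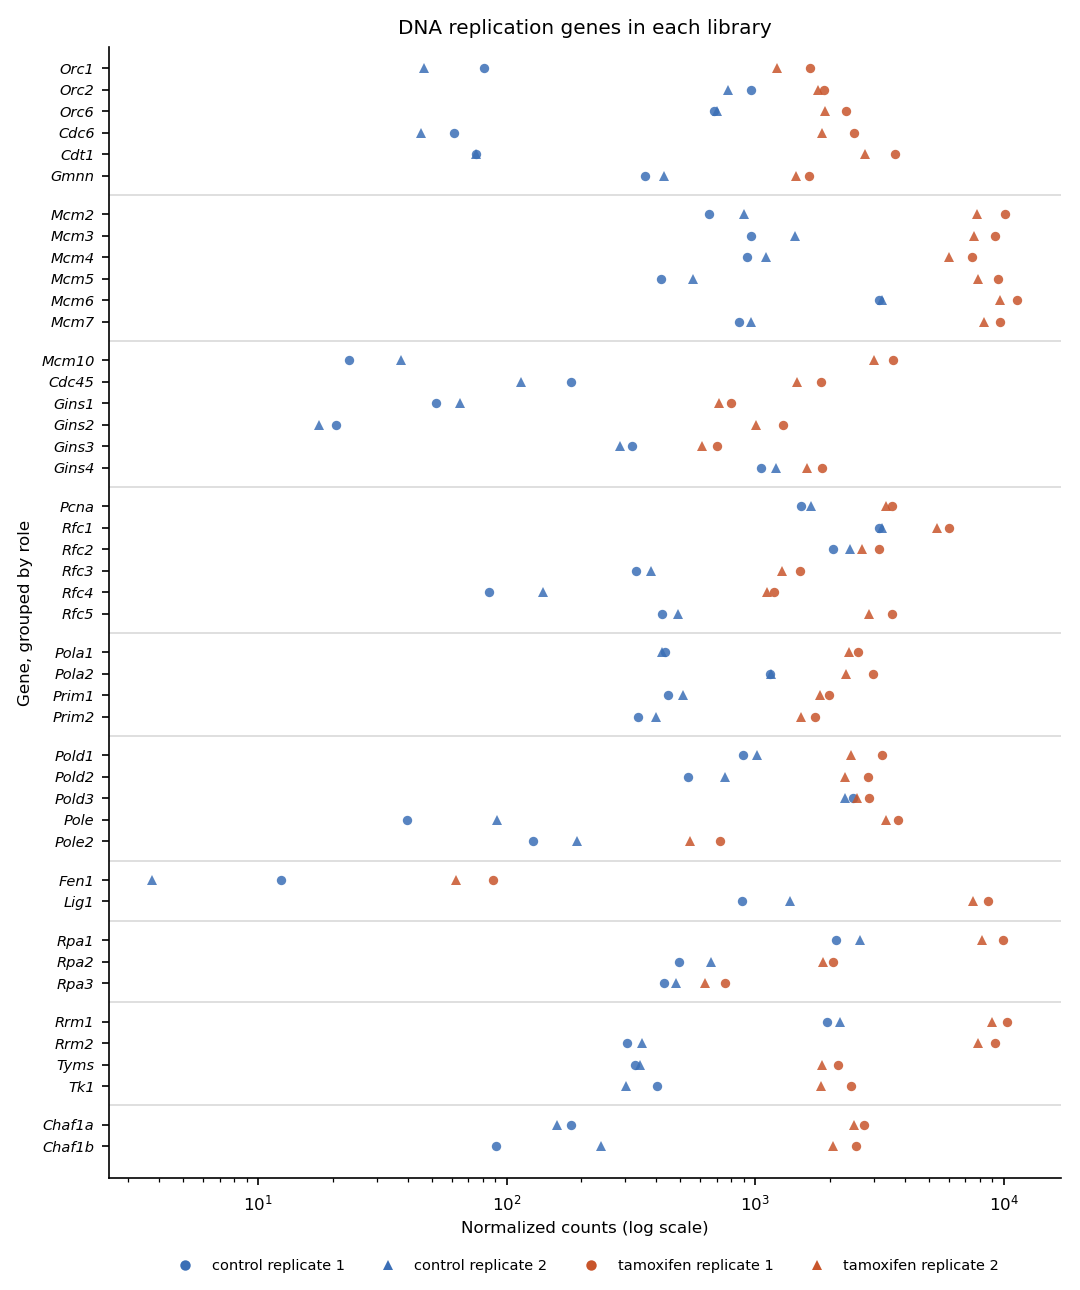
Normalized counts (log scale, horizontal) of the 44 replication genes, grouped by role in the order of the text, with control libraries in blue and tamoxifen libraries in orange, circles for replicate 1 and triangles for replicate 2. In each gene both orange points lie to the right of both blue points, with a gap that spans most of the axis for Mcm10 (23.3 and 37.5 against 3599 and 3016) and is barely visible for Pold3 (2472 and 2305 against 2858 and 2571).

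The genes that were high in tamoxifen libraries did not all start from the same level. In the control libraries, 34 of the 44 measured more than 100 normalized counts in both replicates, so most of the machinery was detected there as well. Only Fen1 touched the floor, with 3 reads in control replicate 2. Mcm10, Pole, Gins2, Cdt1 and Cdc6, which changed most, each measured under 100 normalized counts in both control libraries. The 5 genes that were not called, Pold3, Rfc2, Rpa3, Gins4 and Rfc1, each measured above 400 there. Because the control level is the denominator of a fold change, this contrast is partly built in. It was also not strict, since Fen1, scarcer still, rose by 3.24 on the log2 scale and Rrm2, at 305 and 352 in control libraries, by 4.70.

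Origin recognition and licensing comprised 6 members, and 6 of 6 were called higher, with a median log2 fold change of 3.25. Beside this and each later count by role stand 28.6% of all tested genes called higher and 16.0% called lower. Cdt1, which brings the Mcm ring to the origin, measured 75.3 and 75.1 normalized counts in control libraries and 3663 and 2776 in tamoxifen libraries. That is a log2 fold change of 5.39 (SE 0.23, adjusted p = 6.06e-06), and the groups lay far apart. Cdc6, the ATPase that loads the ring together with Cdt1, went from 61.6 and 45.1 to 2504 and 1851, and Orc1, the origin recognition subunit that is replaced in each cell cycle, from 80.8 and 46.3 to 1668 and 1222. Their log2 fold changes were 5.33 and 4.52. Orc3, Orc4 and Orc5, subunits of the same complex that are not members, had log2 fold changes of 0.20, -0.34 and 0.11 and were not called. The other origin recognition subunits among the members moved less than Orc1. Orc6 rose from 685 and 700 to 2314 and 1907, and Orc2 from 966 and 777 to 1891 and 1785, with a log2 fold change of 1.08 for Orc2 (SE 0.18, adjusted p = 0.00137). The call for Orc2 was lost without control replicate 2 (0.93, adjusted p = 0.00247), without tamoxifen replicate 1 (1.04, adjusted p = 0.0685), without tamoxifen replicate 2 (1.12, adjusted p = 0.0676) and after quantile normalization (0.95). Gmnn encodes geminin, the inhibitor that holds Cdt1 back after origins have fired, and it rose from 360 and 429 to 1643 and 1458. The ratio of Cdt1 to Gmnn in normalized counts was therefore 0.209 and 0.175 in control libraries and 2.23 and 1.90 in tamoxifen libraries, a ratio that is uncorrected for length. Per kb of transcript Cdt1 stayed below Gmnn in every library, at 34.0 and 33.9 against 374 and 446 in controls and at 1655 and 1254 against 1706 and 1514 with tamoxifen.

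The promoters of the genes at either end of this group show how they differ in sequence. E2F factors bind short sites, and 4 words of that kind (TTTCCCGC, TTTGGCGC, TTTCGCGC and TTTGCCGC) were searched on both strands of the 300 bases from 250 before to 50 after each annotated start site. The windows were cut from GRCm39 with GENCODE M39 start sites and are written along the gene's strand, with bases of an E2F word in capitals. Cdt1 lies on the plus strand of chromosome 8, at 123294703 to 123300293, and its window chr8:123294498-123294797 has 1 word from base +39 to base +46 of the transcript, whereas that of Orc2 (chr1:58544219-58544518, minus strand) has none.
Cdt1: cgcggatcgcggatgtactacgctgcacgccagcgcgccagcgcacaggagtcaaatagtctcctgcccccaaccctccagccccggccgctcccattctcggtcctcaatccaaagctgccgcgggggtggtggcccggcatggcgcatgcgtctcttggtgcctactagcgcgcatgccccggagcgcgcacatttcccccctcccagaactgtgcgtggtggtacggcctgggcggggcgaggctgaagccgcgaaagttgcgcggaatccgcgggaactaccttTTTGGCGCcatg
Orc2: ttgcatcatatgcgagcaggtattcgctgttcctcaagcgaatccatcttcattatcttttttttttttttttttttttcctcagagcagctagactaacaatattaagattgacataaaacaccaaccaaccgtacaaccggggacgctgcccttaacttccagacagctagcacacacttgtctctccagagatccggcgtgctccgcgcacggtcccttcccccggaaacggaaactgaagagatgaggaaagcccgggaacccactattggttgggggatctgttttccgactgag

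The 6 subunits of the Mcm2 to Mcm7 ring, the core of the replicative helicase, were all called higher (6 of 6, median log2 fold change 3.06). Mcm5 changed most, from 419 and 564 normalized counts in control libraries to 9478 and 7861 in tamoxifen libraries, a log2 fold change of 4.15 (SE 0.20, adjusted p = 7.9e-06). Mcm6 changed least, from 3163 and 3243 to 11339 and 9633, a log2 fold change of 1.71 (SE 0.16, adjusted p = 0.000106). The remaining subunits sat in between. Mcm2 went from 655 and 904 to 10081 and 7825, and Mcm7 from 863 and 960 to 9673 and 8361. Mcm3 and Mcm4 measured 964 and 1451 and 930 and 1105 in control libraries, and rose by 2.82 and 2.73 on the log2 scale.

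Divided by transcript length, the 6 subunits lay closer together in tamoxifen libraries than in the controls. In the control libraries Mcm6 stood at 1065 and 1092 normalized counts per kb of transcript and Mcm5, the lowest, at 91.1 and 123, so that the highest subunit was 11.7 and 8.90 times the lowest. In tamoxifen libraries the highest was again Mcm6 and the lowest Mcm4, and the ratio was 2.63 and 2.75. Because all 6 proteins occur once in each ring, a length-corrected level is the scale on which the subunits can be set side by side, although reads were counted over whole genes and the length is that of 1 canonical transcript.

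Mcm5 and Mcm6, the ends of this group, both hold E2F words in their promoters. The window of Mcm5 (chr8:75835890-75836189, plus strand) has 2 words on opposite strands that overlap each other, from -156 to -149 and from -152 to -145. The window of Mcm6 (chr1:128287403-128287702, minus strand) has 3, an overlapping pair from -100 to -93 and from -96 to -89 and a further word from -37 to -30.
Mcm5: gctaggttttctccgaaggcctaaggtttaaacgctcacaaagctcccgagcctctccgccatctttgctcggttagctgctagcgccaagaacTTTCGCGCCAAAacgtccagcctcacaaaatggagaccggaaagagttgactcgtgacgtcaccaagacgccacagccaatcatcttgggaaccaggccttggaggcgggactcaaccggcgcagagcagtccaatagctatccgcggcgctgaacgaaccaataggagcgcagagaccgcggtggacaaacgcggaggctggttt
Mcm6: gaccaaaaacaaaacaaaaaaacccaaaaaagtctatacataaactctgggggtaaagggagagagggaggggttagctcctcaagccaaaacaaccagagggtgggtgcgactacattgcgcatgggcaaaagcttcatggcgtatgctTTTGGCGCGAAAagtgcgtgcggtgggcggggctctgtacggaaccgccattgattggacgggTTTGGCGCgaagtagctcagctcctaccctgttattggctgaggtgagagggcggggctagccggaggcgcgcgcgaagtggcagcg

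**Figure D2:**
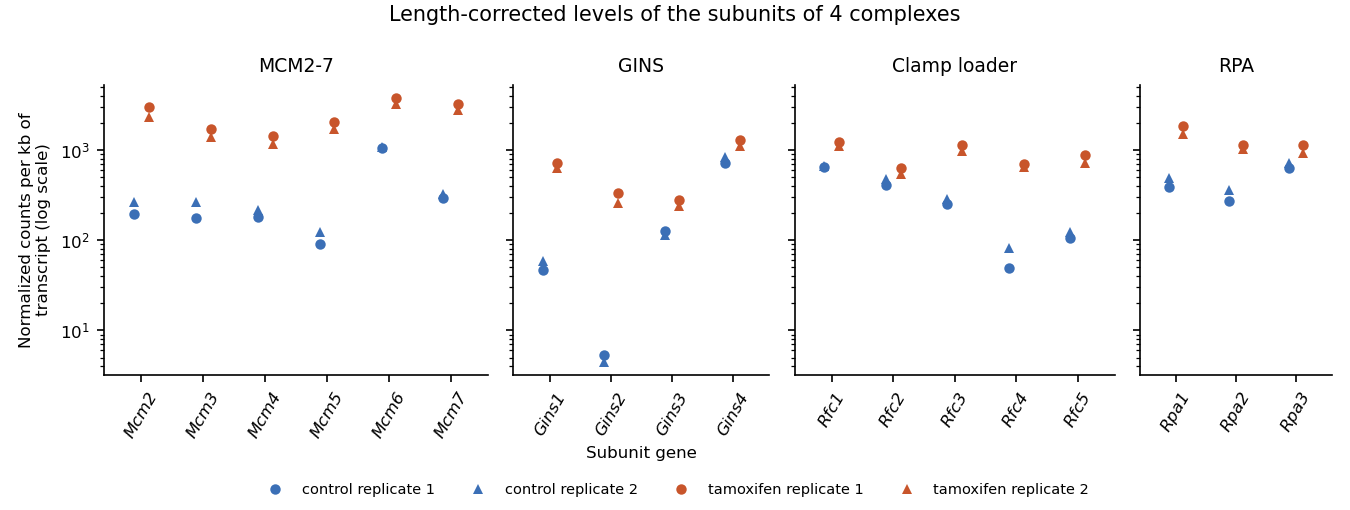
Normalized counts per kb of transcript (log scale, vertical) of the subunits of Mcm2 to Mcm7, GINS, the clamp loader and RPA, with control libraries in blue and tamoxifen libraries in orange, circles for replicate 1 and triangles for replicate 2. Control points of the GINS genes run from 4.49 for Gins2 to 839 for Gins4 in control replicate 2, and those of RPA only from 365 for Rpa2 to 715 for Rpa3.

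Helicase activation, the step that commits a licensed origin, had 5 of 6 genes called higher and a median log2 fold change of 3.59. Mcm10, which is needed to start unwinding, measured 23.3 and 37.5 normalized counts in control libraries (17 and 30 reads) and 3599 and 3016 in tamoxifen libraries. With a log2 fold change of 6.75 (SE 0.31, adjusted p = 6.91e-06), it was the highest of the 44 genes. Cdc45, the helicase cofactor, went from 182 and 114 to 1840 and 1476. The 4 genes of the GINS complex, whose proteins form a tetramer with 1 copy of each, behaved unequally. Gins2 rose from 20.5 and 17.5 to 1290 and 1012, and Gins1 from 52.1 and 65.1 to 802 and 714, log2 fold changes of 5.84 and 3.68. Gins3 rose from 321 and 287 to 704 and 608, and Gins4 measured 1055 and 1218 in control libraries and 1861 and 1611 in tamoxifen libraries. The log2 fold change of Gins4, 0.61 (SE 0.17, adjusted p = 0.017), was under the size limit, although its groups did not overlap, and with equal totals it passed both limits (1.08, adjusted p = 0.00122). Per kb of transcript, Gins4 was the highest of the GINS genes in all 4 libraries, and Gins2 the lowest in control libraries (5.27 and 4.49) while Gins3 was the lowest in tamoxifen libraries (280 and 241). The call for Gins3 was lost without tamoxifen replicate 1 (1.00, adjusted p = 0.0844), without tamoxifen replicate 2 (1.21, adjusted p = 0.067) and after quantile normalization (0.36).

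The clamp and clamp loader genes had 4 of 6 called higher and a median log2 fold change of 1.54, the lowest of the 10 role groups. Pcna, the sliding clamp that tethers polymerases to DNA, was already abundant in control cells at 1523 and 1677 normalized counts and rose to 3544 and 3365, a log2 fold change of 1.11. A processed pseudogene with nearly the same sequence, Pcna-ps2, is listed separately at 17.8 and 13.8 in control libraries and 708 and 545 in tamoxifen libraries, and how reads were divided between it and Pcna is not known. The loader is a ring of 5 subunits. Rfc4 changed most, from 84.9 and 140 to 1187 and 1121 (log2 fold change 3.39, SE 0.30, adjusted p = 8.55e-05), followed by Rfc5, from 421 and 488 to 3549 and 2860, and Rfc3, from 333 and 380 to 1515 and 1281. Rfc1, the large subunit, measured 3144 and 3247 against 6027 and 5391, and its log2 fold change of 0.84 (SE 0.15, adjusted p = 0.0022) passed on the adjusted p but not on size. Rfc2 measured 2052 and 2402 against 3144 and 2697 (0.39, SE 0.17, adjusted p = 0.0755). Rfc4 lost its call without tamoxifen replicate 2 (3.43, adjusted p = 0.0502). Rfc1 passed both limits with equal totals (1.31) and after quantile normalization (1.16).

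Polymerase alpha-primase, which begins every new strand with a short primer, had 4 of 4 genes called higher and a median log2 fold change of 2.07. Pola1, the catalytic subunit, went from 433 and 421 normalized counts in control libraries to 2600 and 2396 in tamoxifen libraries (2.55, SE 0.17, adjusted p = 2.73e-05). Pola2, the subunit that links it to the helicase, was the least changed, from 1152 and 1161 to 2970 and 2313 (1.18, SE 0.18, adjusted p = 0.00084), and fell just under the size limit without tamoxifen replicate 1 (0.999). The primase genes Prim1 and Prim2 lay between, at 447 and 514 against 1987 and 1815 for Prim1 and 337 and 398 against 1735 and 1527 for Prim2. The window of Pola1 (chrX:92675764-92676063, minus strand) has an E2F word from -86 to -79, whereas that of Pola2 (chr19:6014212-6014511, minus strand) has none.
Pola1: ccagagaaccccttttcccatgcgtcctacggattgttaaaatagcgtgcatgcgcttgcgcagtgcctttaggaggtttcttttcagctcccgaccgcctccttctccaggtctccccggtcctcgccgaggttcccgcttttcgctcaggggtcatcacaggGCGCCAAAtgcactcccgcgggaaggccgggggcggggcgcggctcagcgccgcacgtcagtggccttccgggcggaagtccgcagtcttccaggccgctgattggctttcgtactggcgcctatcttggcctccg
Pola2: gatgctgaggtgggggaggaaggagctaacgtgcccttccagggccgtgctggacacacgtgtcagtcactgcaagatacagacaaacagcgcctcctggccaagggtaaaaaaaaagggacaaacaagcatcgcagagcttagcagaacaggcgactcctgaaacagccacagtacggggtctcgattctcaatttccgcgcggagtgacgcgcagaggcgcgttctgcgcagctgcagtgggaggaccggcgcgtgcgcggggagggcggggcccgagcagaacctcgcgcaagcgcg

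Polymerases delta and epsilon, which copy the lagging and the leading strand, had 4 of 5 members called higher. Their median log2 fold change was 1.99, with subunits as far apart as 0.18 and 5.85. Pold4, Pole3 and Pole4, subunits that are not members, had log2 fold changes of -0.36, 0.74 and 0.72 and were not called. Pole, the catalytic subunit of polymerase epsilon, measured 39.7 and 91.4 normalized counts in control libraries and 3756 and 3346 in tamoxifen libraries, a log2 fold change of 5.85 (SE 0.37, adjusted p = 2.34e-05). It came to 5.26 without control replicate 1 and 6.44 without control replicate 2. Pole2, its second subunit, went from 127 and 193 to 719 and 547, a log2 fold change of 1.99 that was no longer called without tamoxifen replicate 1 (adjusted p = 0.0877) or without tamoxifen replicate 2 (adjusted p = 0.0697). The 3 polymerase delta genes among the members were ordered differently. Pold1, the catalytic subunit, went from 892 and 1021 to 3249 and 2421, and Pold2 from 538 and 755 to 2846 and 2296. Pold3, which joins the polymerase to the clamp, measured 2472 and 2305 against 2858 and 2571, and was not called (0.18, SE 0.15, adjusted p = 0.328). Its groups did not overlap, but the gap between them was smaller than the gap between its tamoxifen replicates. Pold2 lost its call without tamoxifen replicate 1 (1.85, adjusted p = 0.0522). The window of Pold3 (chr7:99770839-99771138, minus strand), the least changed of the 44 genes, holds no E2F word, and neither does that of Mcm10, the most changed.
Pold3: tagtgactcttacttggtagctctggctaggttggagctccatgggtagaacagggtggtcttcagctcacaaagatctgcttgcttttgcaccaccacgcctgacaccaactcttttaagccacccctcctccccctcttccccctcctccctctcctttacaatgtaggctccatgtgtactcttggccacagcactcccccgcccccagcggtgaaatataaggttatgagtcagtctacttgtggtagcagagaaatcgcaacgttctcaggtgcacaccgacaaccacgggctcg

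Lagging-strand fragments are trimmed by Fen1 and sealed by Lig1, and both genes were called higher. Lig1 went from 889 and 1383 normalized counts in control libraries to 8640 and 7555 in tamoxifen libraries (2.86, SE 0.22, adjusted p = 5.3e-05). Fen1 was scarce throughout, with 9 and 3 reads in control libraries and 81 and 87 in tamoxifen libraries, or 12.3 and 3.75 against 87.8 and 62.5 normalized counts. Its log2 fold change of 3.24 (SE 0.67, adjusted p = 0.00436) had the largest error of the 44 genes. The value was 2.50 without control replicate 2 and 3.98 without control replicate 1, and the call was lost without tamoxifen replicate 1 (adjusted p = 0.114) and without tamoxifen replicate 2 (adjusted p = 0.0994). In the annotation, 66.0% of the exon bases of Fen1 also belong to other genes on the opposite strand, Gm10143 and Tmem258. Tmem258 measured 864 and 1036 against 1525 and 1226, so a level for Fen1 depends on how shared bases were counted, and the counting setting is not given in the sources used here.

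RPA, the trimer that coats single-stranded DNA, had 2 of 3 genes called higher and a median log2 fold change of 1.78. Rpa1, the large subunit, measured 2120 and 2646 normalized counts in control libraries and 9973 and 8199 in tamoxifen libraries (1.93, SE 0.18, adjusted p = 0.000107), and Rpa2 496 and 662 against 2066 and 1866. Rpa2 kept its direction but not its call without tamoxifen replicate 1 (1.70, adjusted p = 0.0509) and without tamoxifen replicate 2 (1.85, adjusted p = 0.0515). Rpa3, the smallest subunit, measured 429 and 479 against 756 and 626 (0.60, SE 0.21, adjusted p = 0.0422). That was below the size limit, and Rpa3 alone among the 44 genes changed sign in an alternative, at -0.013 after quantile normalization (adjusted p = 0.961), while it passed both limits with equal totals (1.07).

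Genes of nucleotide supply were called higher in 4 of 4 cases, with a median log2 fold change of 2.59. Rrm2, the small subunit of ribonucleotide reductase, which makes deoxyribonucleotides in S phase, went from 305 and 352 normalized counts in control libraries to 9252 and 7901 in tamoxifen libraries (4.70, SE 0.17, adjusted p = 3.69e-06). Rrm1, the large subunit, went from 1949 and 2185 to 10311 and 8996 (2.22, SE 0.16, adjusted p = 3.89e-05). Rrm2b, which is no member of the list, encodes the alternative small subunit that works outside S phase, and it measured 1401 and 1213 in control libraries and 804 and 674 in tamoxifen libraries (-0.82, SE 0.19, adjusted p = 0.00663, not called). The ratio of Rrm2 to Rrm2b was 0.218 and 0.290 in the former and 11.5 and 11.7 in the latter, and per kb of transcript Rrm2 stood at 117 and 134 against 306 and 265 for Rrm2b in controls and at 3529 and 3014 against 176 and 147 with tamoxifen. Tyms and Tk1, which supply thymidylate by synthesis and by salvage, rose by 2.58 and 2.60 on the log2 scale, from 327 and 343 to 2160 and 1866 for Tyms and from 403 and 302 to 2432 and 1840 for Tk1.

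CAF-1 places histones on newly made DNA. Chaf1a, its large subunit, went from 182 and 159 normalized counts in control libraries to 2731 and 2488 in tamoxifen libraries (3.93, SE 0.20, adjusted p = 9.49e-06). Chaf1b went from 90.4 and 240 to 2555 and 2056 (3.95, SE 0.42, adjusted p = 0.000166), and the wide gap between its control replicates shows in the error. Its log2 fold change was 3.25 without control replicate 1 and 4.65 without control replicate 2, and the call was lost without tamoxifen replicate 1 (adjusted p = 0.0726) and without tamoxifen replicate 2 (adjusted p = 0.0707).

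**Figure D3:**
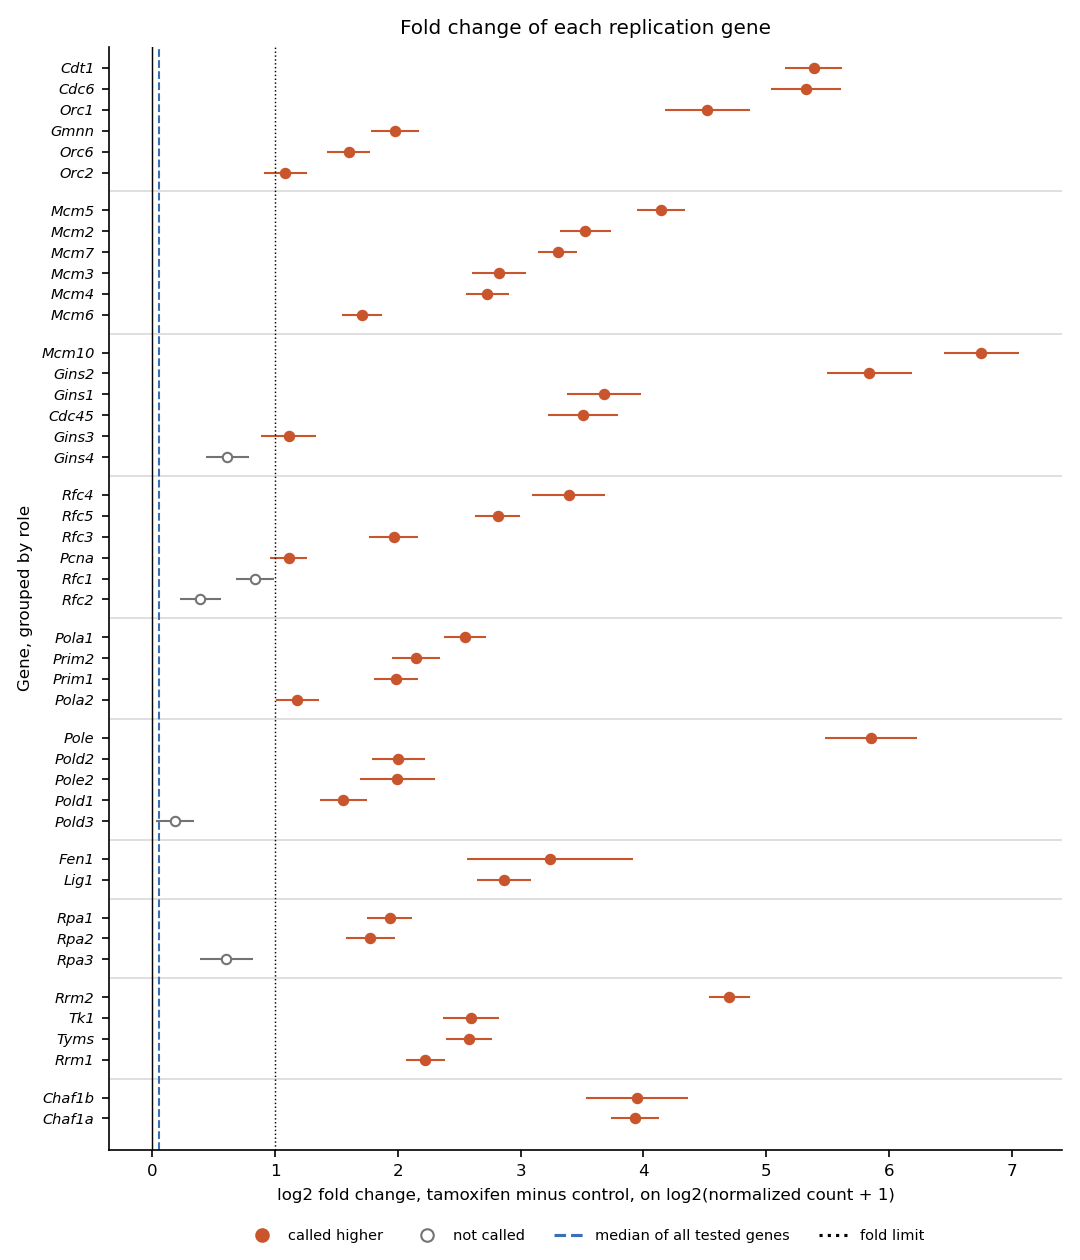
Fitted log2 fold change of each replication gene (tamoxifen minus control, horizontal), on log2(normalized count + 1), sorted within its role, where points are estimates from 2 against 2 libraries, bars are ± 1 SE, filled points were called higher and open points were not called. The dotted line marks the size limit of 1 and the dashed line the median over all tested genes, 0.05, and the 5 open points (Gins4, Rfc1, Rfc2, Pold3 and Rpa3) lie to the left of the dotted line.

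Across the 44 genes, levels per kb of transcript were less spread in tamoxifen libraries than in the controls. For this, 1 was added to each normalized count before it was divided by length. The SD of the log2 of that level over the genes was 2.09 and 2.20 in control libraries and 1.21 and 1.23 in tamoxifen libraries, and without Fen1 1.99 and 1.99 against 0.951 and 0.956. The same SD over 20185 tested genes with a length was 3.50 and 3.44 against 2.76 and 2.60, so it was also smaller in tamoxifen libraries over the whole table. The median level per kb over the 44 genes was 188 and 217 in control libraries and 1145 and 958 in tamoxifen libraries.

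The tamoxifen replicates differed from each other in the same direction for every member. Tamoxifen replicate 1 was above replicate 2 in 44 of 44 genes, by a ratio between 1.05 and 1.40 with a median of 1.18, while 58.0% of all tested genes were higher in replicate 1 and the median ratio over them was 1.06. Among all genes called higher the share was 51.2% and the median ratio 1.02. With equal totals, 41 of 44 members were still higher in replicate 1, against 47.9% of tested genes. Control replicate 2 was above control replicate 1 in 32 of 44 members, against 54.5% of tested genes.

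E2F words occurred in the promoters of 13 of 44 members (29.5%) and in 3.08% of 20184 promoters of tested genes, a comparison given without a test. The 13 were Orc1, Cdc6, Cdt1, Gmnn, Mcm3, Mcm4, Mcm5, Mcm6, Gins1, Rfc3, Pola1, Pole and Pole2. Their median log2 fold change was 2.82, with 13 of 13 called higher, and that of the 31 members without a word 2.15, with 26 of 31 called higher, and the ranges overlapped widely (1.71 to 5.85 with a word, 0.18 to 6.75 without). Mcm10, Gins2 and Rrm2 rose strongly with no such word in the window. The CCAAT box, bound by NF-Y, was found as CCAAT in 26 of 44 member promoters (59.1%, against 37.9% of all), the GC box GGGCGG in 24 (54.5%, against 47.3%), and TTTGAA, the cell cycle homology region of genes expressed in G2 and mitosis, in 3 (6.82%, against 15.5%). All words were searched on both strands. A word in the window is not evidence of binding, and a window without it says nothing about the factor.

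**Figure D4:**
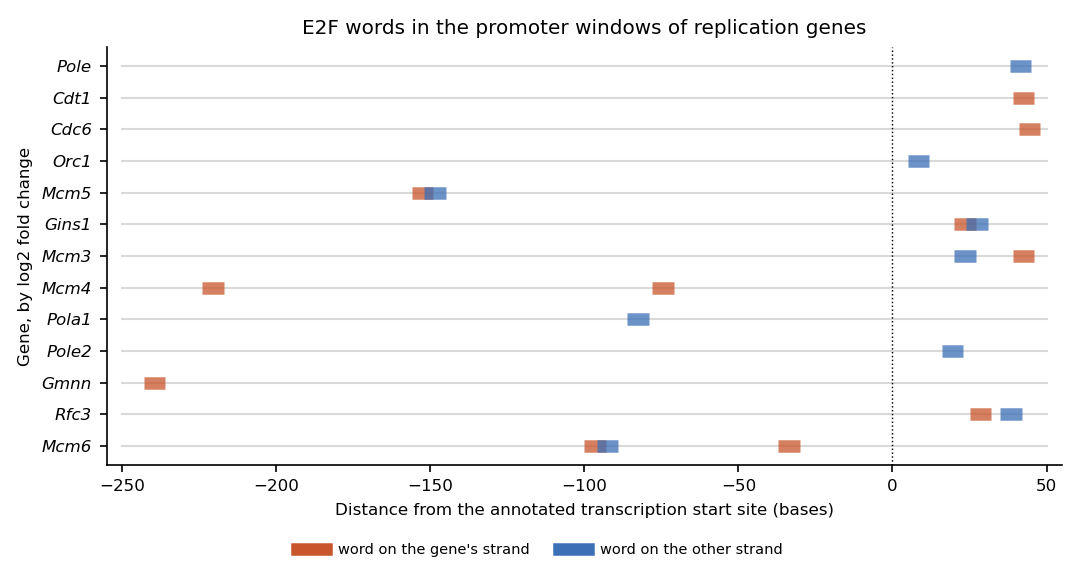
Positions of E2F words (distance from the annotated start site in bases, horizontal) in the promoter windows of the 13 replication genes that hold one, sorted by log2 fold change from Pole (5.85, top) to Mcm6 (1.71, bottom), with words on the gene's strand in orange and on the other strand in blue. In genes such as Cdt1 and Pole the words lie after the start site, and in 5 (Mcm5, Mcm4, Pola1, Gmnn and Mcm6) before it.

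Beyond the 44 members, 40 further factors of the same process were examined, some of them subunits of the same complexes. Of these, 22 were called higher and 1 lower, beside 28.6% and 16.0% of all tested genes, with a median log2 fold change of 1.38, about midway between that of the 44 members and that of all genes. Ticrr, which hands Cdc45 to the helicase, went from 39.7 and 30.0 normalized counts in control libraries to 3514 and 2820 in tamoxifen libraries (6.47, SE 0.27, adjusted p = 5.97e-06). Asf1b, a histone chaperone of S phase, went from 15.1 and 22.5 to 1645 and 1284 (6.23, SE 0.36, adjusted p = 1.5e-05). At the other end, Samhd1, an enzyme that breaks deoxyribonucleotides down, fell from 15420 and 13521 to 5432 and 3683 (-1.69, SE 0.22, adjusted p = 0.000398), and Rrm2b, given above, was next. Within complexes the list and the members went apart, but both were chosen with earlier results known, so this split is not read as a result. Orc1, Orc2 and Orc6 were called higher while Orc3, Orc4 and Orc5, subunits of the same complex, had log2 fold changes of 0.20, -0.34 and 0.11 and were not called, and Asf1a, the paralogue of Asf1b, had 0.03.

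E2F and RB genes, which encode the regulators of this program, comprised 13 genes with 5 called higher by limma, edgeR and DESeq2, none lower by any of these (1 at limma's unadjusted p under 0.05) and a median log2 fold change of 0.59. Over all tested genes 28.6% were called higher and 16.0% lower, and with 13 genes the counts are not read as particular to the list. E2f8, a repressor that is itself an E2F target, went from 12.3 and 31.3 normalized counts in control libraries to 2426 and 1848 in tamoxifen libraries (6.67, SE 0.45, adjusted p = 2.97e-05), and E2f1, an activator, from 24.7 and 33.8 to 1710 and 1531 (5.76, SE 0.31, adjusted p = 1.22e-05). Rbl2, a pocket protein of resting cells, measured 2204 and 2232 against 1404 and 1386 (-0.67, SE 0.15, adjusted p = 0.00617, not called), and E2f6 1319 and 1254 against 1113 and 1210 (-0.15, SE 0.16, adjusted p = 0.456).

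Mitotic markers had a larger median change than the replication genes, a difference that was not tested. All 10 were called higher, with a median log2 fold change of 6.48, from 3.94 for Cdk1, the kinase that drives entry into mitosis (SE 0.17, adjusted p = 6.28e-06), and 4.93 for Plk1 (SE 0.27, adjusted p = 1.28e-05) to 7.07 for Bub1 (SE 0.26, adjusted p = 4.16e-06) and 7.22 for Ccnb1, the mitotic cyclin (SE 0.25, adjusted p = 3.37e-06). Their summed level was 1318 and 1636 normalized counts in control libraries and 97175 and 93554 in tamoxifen libraries. The sum over the 44 replication genes went from 32074 and 35987 to 173660 and 146160. As a result the sum over the replication genes was 24.3 and 22.0 times that over the mitotic markers in control libraries. In tamoxifen libraries it was 1.79 and 1.56 times, and the groups did not overlap in this ratio. The sums are over 44 and 10 genes and uncorrected for length, so the ratio does not compare levels of single genes.

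Genes that replicate mitochondrial DNA were spread around 0. None of 12 was called by limma, though 6 had an adjusted p under 0.05, 3 of them higher and 3 lower, and the median log2 fold change was -0.03. At an unadjusted p under 0.05 limma had 4 higher and 3 lower, and edgeR and DESeq2 called 0. Twnk, the mitochondrial helicase, and Tfam, which packages mitochondrial DNA, measured 0.81 (SE 0.19, adjusted p = 0.00697) and 0.74 (SE 0.16, adjusted p = 0.00595), and Dguok, a mitochondrial nucleoside kinase, and Rnaseh1 -0.87 (SE 0.18, adjusted p = 0.00426) and -0.55 (SE 0.19, adjusted p = 0.0374). With equal totals 3 were called higher and after quantile normalization 4 were called lower, and the median moved to 0.44 and -0.29. Whether the nuclear and the mitochondrial list differ was not tested.

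**Figure D5:**
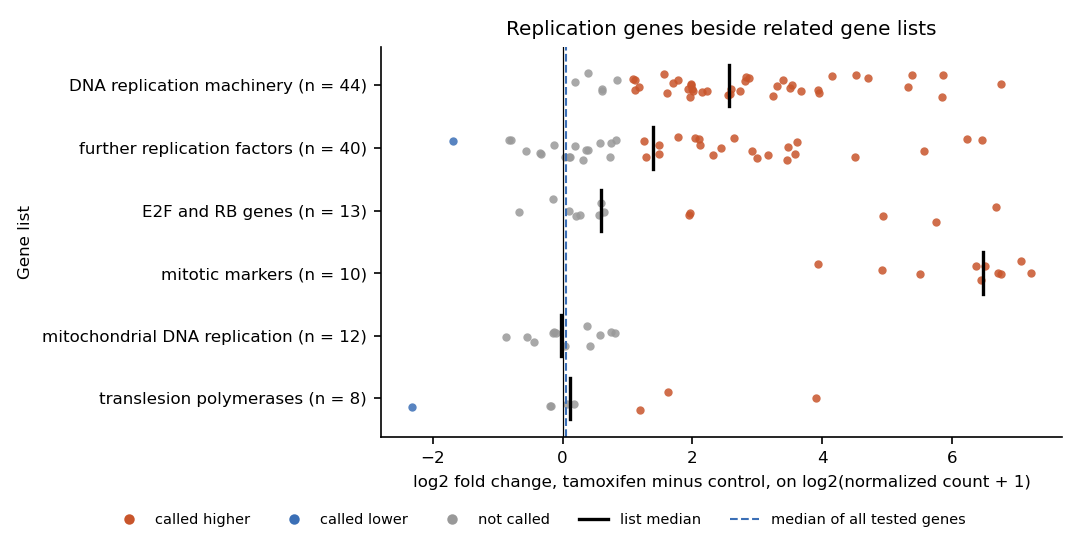
Fitted log2 fold changes (tamoxifen minus control, horizontal) of the 44 replication genes and of 5 related lists, where each point is 1 gene (orange called higher, blue called lower, grey not called), black bars are list medians and the dashed line is the median over all tested genes. Medians run from 6.48 for the mitotic markers through 2.56 for the replication genes and 1.38 for the further factors to -0.03 for the mitochondrial list.

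Markers of several other cell types moved with the replication genes. Over all tested genes 28.6% were called higher and 16.0% lower. Neutrophil precursor markers summed to 303 and 234 normalized counts in control libraries and 111990 and 83335 in tamoxifen libraries (10 of 10 called higher), with Cebpe at 0 in both controls. Erythroblast markers summed to 77751 and 99962 against 199470 and 128470 (9 higher, 1 lower). Tfrc, the transferrin receptor and the lower gene, went from 60176 and 64579 to 32287 and 20606, and without it the sum went from 17575 and 35384 to 167190 and 107860. Leukocyte markers summed to 1340 and 2038 against 15564 and 11556 (9 of 10 higher), with Ptprc, which encodes CD45, at 50.7 and 83.9 against 1423 and 1119 and Cd3e at 0 and 3.75 in the controls. The sort for CD31+CD45- cells that the study describes would remove cells with CD45 on their surface.

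Lists of other tissues and states were also mostly higher, where 28.6% of all tested genes were called higher and 16.0% lower. Pluripotency markers summed to 221 and 300 in control libraries and 62276 and 49841 in tamoxifen libraries (10 of 10 higher), and fibroblast markers to 2616 and 3596 against 71693 and 61695 (9 of 10 higher), with Dpt at 0 in both controls. Oligodendrocyte precursor markers, of which 9 of 10 were listed, summed to 5041 and 6751 against 22773 and 50987 (7 higher, 1 lower), with C1ql1 at 0 in both controls. Gpr17, the lower one, went from 1666 and 926 to 126 and 129, and without it the sum went from 3375 and 5825 to 22647 and 50858. Neural progenitor markers summed to 37416 and 34960 against 22445 and 31158, although 8 of 10 were called higher and 1 lower, with Neurog2 at 0 in both controls. Nes, the lower gene, went from 36146 and 33620 to 9261 and 6930, and without it the sum went from 1270 and 1339 to 13184 and 24229. Of 10 reference genes, 3 were called higher and 2 lower. In which cells of the tamoxifen libraries the replication genes were transcribed cannot be told from bulk RNA, and the part of these cell types in the result was not tested.

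Overlapping annotation touched some of the members. In 24 of the 44, exons share bases with another gene, and in 5 the share is at least 40%, in each case with a gene on the opposite strand. Beside Fen1 these are Gins2 (67.3%, shared with Gse1), Chaf1a (51.0%, Ubxn6), Rrm2 (43.3%, Gm59512) and Rfc5 (41.4%, Wsb2). The listed partners of these genes were not called, and Gm59512 is not listed. Gse1 measured 3553 and 3219 normalized counts in control libraries and 3581 and 3721 in tamoxifen libraries, and Wsb2 2245 and 2299 against 2333 and 2123. Ubxn6 measured 749 and 887 against 464 and 483, lower by limma's adjusted p (0.0117) but under the size limit (log2 fold change -0.78). Of the 29 members that share less than 10% of their exon bases, 25 were called higher, beside 28.6% of all tested genes. The part of shared exons in the calls was not tested.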

How the data were processed

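RNA-Seq of 4 libraries, 2 control and 2 tamoxifen, was analysed. The authors made libraries with a stranded mRNA kit, and the submitters' processing notes name STAR 2.7.10a, GRCm39 and DESeq2 1.36.0. Annotation release, strand setting and low-count limit are not given in the sources used here. Each deposited value is a signal, obtained when the authors scaled the reads counted on a gene by 1 factor per library. Whole reads could be recovered for 100% of values (within 0.01). Mice of both sexes were used.

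limma 3.58.1 (lmFit, eBayes with trend, R 4.3.3) was run on log2(normalized count + 1), a scale that understates the change of low genes, limited to genes averaging 10 normalized counts or more, with Benjamini-Hochberg adjustment over all 20485 tested genes. A gene was called where the adjusted p lay under 0.05 and the log2 fold change exceeded 1 in size. Settings varied were the pseudocount (0.5 or 5), the filter (none, or a mean of at least 100), equal totals, quantile normalization, no trend, a replicate block, count models on the recovered reads (edgeR 4.0.16, DESeq2 1.42.0), omission of each library, and the adjusted p alone. Of the procedures, limma and edgeR were tested on simulated counts in which few genes changed, as many up as down, a setting unlike these data. GENCODE M39 held 24451 of the 24873 symbols. The members and lists were chosen with earlier results of these data known. Every member is named, with full statistics for the largest and smallest change in each role and for members not called, and of each related list the 2 largest and 2 smallest are named. Promoter sequences are printed for some of these members, and 1 is not reported here. Orc3, Orc4, Orc5, Pold4, Pole3, Pole4, Asf1a, the overlapping genes, Ptprc, Nes, Tfrc and Gpr17 were named after their values were seen.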

Additional observations from a re-analysis of the deposited data

How the results depend on the processing

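With 2 libraries per group, depth was not the limit for most members, but Fen1 rested on 3 to 87 reads. Of 615 values of single members under the alternatives, 592 kept their direction and side of the limits, 18 lost and 4 gained the call, and 1 reversed (Rpa3, -0.013 after quantile normalization). Of 39 called members, 30 kept the call in every alternative. Members called higher numbered 39 with both pseudocounts, no filter, no trend, edgeR and DESeq2, 38 at a mean of at least 100 (where Fen1 dropped out) and after quantile normalization, 42 with equal totals and with the adjusted p alone, and 31 to 39 with a library left out, while none was lower in any of these. The cause of the differences was not tested.

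The replicate numbers were tried as a block. Deviations of replicate 1 correlated at 0.0251 between the groups over 20485 genes. With 2 pairs this cannot tell whether same-numbered samples share anything beyond the number. With the replicate block 39 members and 9525 genes were called.

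The median over the members was 3.03 with equal totals, 2.26 after quantile normalization and 2.44 to 2.65 with a library left out. At a mean of at least 100, 5934 genes were called, 3540 of them higher. With equal totals, 1838 genes were lower, and higher calls came to 8 E2F and RB and 3 mitochondrial genes. After quantile normalization 5509 genes were lower, with 5 further factors and 4 mitochondrial genes among them, and 1 translesion polymerase was higher. By the adjusted p alone 5228 genes were lower, including 3 further factors, 1 E2F or RB gene and 3 mitochondrial genes, while 8 E2F and RB and 3 mitochondrial genes were higher. With a library left out, calls ranged from 4147 to 9700 genes in all, 2553 to 6163 higher and 1594 to 3537 lower, and from 0 to 1 lower mitochondrial gene and 1 to 3 higher translesion polymerases.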

Other observations

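Translesion polymerases, which copy past damaged bases and are no part of the regular machinery, comprised 8 genes. Of these, 3 were called higher and 1 lower, shares near the 28.6% and 16.0% of all tested genes, with a median log2 fold change of 0.12. Polq, the polymerase of end joining by microhomology, measured 61.6 and 60.1 normalized counts in control libraries and 888 and 963 in tamoxifen libraries (3.90, SE 0.28, adjusted p = 3.8e-05). Poln measured 17.8 and 17.5 against 48.8 and 64.7 (1.62, SE 0.53, adjusted p = 0.0306). Polk fell from 10591 and 8411 to 2315 and 1545 (-2.32, SE 0.22, adjusted p = 0.000119), from the highest level of the list in control cells. Mad2l2 measured 974 and 1268 against 957 and 993 (-0.19, SE 0.19, adjusted p = 0.42). Without tamoxifen replicate 1, without tamoxifen replicate 2 and after quantile normalization, 1 of the 8 was called higher.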
